A study of Mus musculus with 2 samples.

Results

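Cd38 and 9 further genes of NAD metabolism were followed in cultured osteoclasts, the multinucleated cells that resorb bone. The genes were Cd38, Bst1, Nampt, Nmnat1, Nmnat3, Nadk, Nnmt, Qprt, Parp1 and Sarm1. They were chosen by name with earlier results of these arrays known, and their probes were found through the RefSeq accession that the scanner files give for each spot. All 10 genes had a probe, with 12 probes of 1 spot each, among 20654 genes that could be named on the array. RNA was labelled with Cy3 and hybridised to 1 Agilent mouse array per genotype, 1 wild type and 1 Dnmt3a knockout. Both cultures came from female C57BL/6 mice, and in both the nonadherent bone marrow cells were grown with M-CSF, after which the adherent precursors received RANKL, the cytokine that drives osteoclast formation, together with M-CSF. Dnmt3a is a de novo DNA methyltransferase. The allele, the cells that had lost it, the age of the mice and whether animals were pooled are not given in the sources used here. With 1 array per genotype there was no replicate, so that no test across samples was possible and each difference below describes these 2 arrays only.

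NAD carries electrons in metabolism and is also consumed as a substrate. Cells make it from tryptophan through quinolinate, or recycle it from nicotinamide, and enzymes such as CD38, the sirtuins and the PARPs split it and release nicotinamide again. CD38 sits mainly on the cell surface, where it turns NAD into ADP-ribose and cyclic ADP-ribose, a messenger that opens calcium stores, and it has been described on osteoclasts and on activated macrophages and lymphocytes.

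The value of a spot is its processed signal, an intensity without units. The log2 differences are knockout minus wild type after each array was divided by its own 75th percentile, 584 (wild type) and 572 (knockout). Each difference carries the error that the scanner software estimated for both spots, brought to the log2 scale; it does not include variation between cultures or mice. Over the 13479 genes well above background on both arrays the median difference was 0.01 and the SD 0.37. Scaling to the 8 spike-in probes instead lowered every difference by 0.53 (range over the single spike-in probes 0.30 to 0.72), so a difference between 0 and 0.53 turns negative with it; both values are given for the 9 measured genes of the 10 and for the list medians. Dnmt3a itself went from 7042 to 1822, a difference of -1.92; no source used here says whether the deletion covers its probe.

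Of the 10 genes, Cd38 alone was past 2-fold, and it was higher on the knockout array. Sarm1 was not well above background on either array, and the other 8 lay between -0.55 and 0.53. Of all genes measured on both arrays, 0.824% were 2-fold or more higher and 0.727% 2-fold or more lower (1.55% in either direction). At 1.5-fold, which Cd38 alone of the 9 also passed, the shares were 5.82%, 4.69% and 10.5%. Because Cd38 was picked with its difference known, the count of 1 in 9 measured genes is not read against those shares. The median of the 9 measured genes was 0.19, against 0.01 for all genes, with 5 above 0 and 4 below (51.9% and 48.1% of all genes). With spike-in scaling it was -0.34, with 2 above 0 and 7 below.

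**Figure D1:**
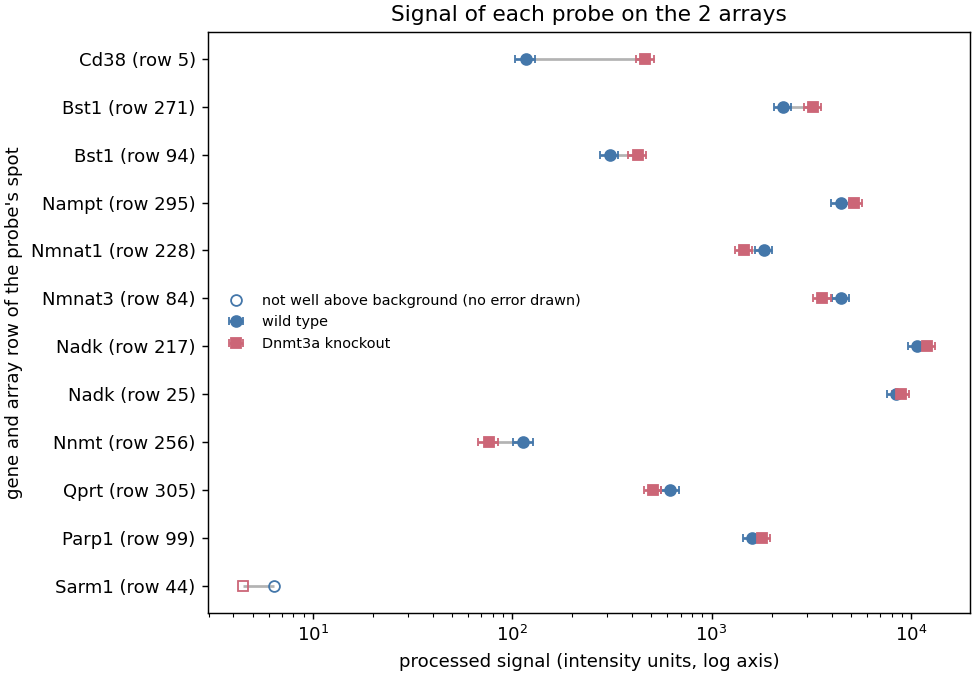
Processed signal of the 12 probes of the 10 genes on the wild type array (circles) and the Dnmt3a knockout array (squares), on a log axis, with the scanner error as bars; open symbols mark Sarm1, which was not well above background. The 2 symbols are far apart only for Cd38, from 117 to 466.

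Cd38 went from a signal of 117 in the wild type to one of 466 in the knockout. The difference was 2.03 with a scanner error of 0.22, or 4.08-fold, and it was 1.5 with spike-in scaling, 1.56 from the median spot signal and 1.19 after a normexp background correction. The normexp setting added an offset of 50 to each signal, which by construction draws the log2 differences of dim spots toward 0. Cd38 had 1 probe with 1 spot, so no second measurement of the gene exists on these arrays. The mean level lay at percentile 25.6 of the measured genes, which makes Cd38 a dim gene here. The spot was not saturated and carried no mark for unevenness. Its median pixel signal before any correction was 168 for the wild type, with 34 around the spot, and 417 for the knockout, with 30 around it.

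The Cd38 spot lies in row 5 and column 43 of an array of 384 rows and 164 columns, near its upper edge. Spots past 2-fold were more frequent there. Among spots above background on both arrays, 5.11% of those in rows 1 to 16 differed 2-fold or more, 1.84% upward and 3.27% downward, and the share lay between 0.683% and 1.69% in the bands below the upper 8 (the array has 24 bands of 16 rows). In the upper 8 bands, 2.30% of 4343 genes were past 2-fold (1.13% higher, 1.17% lower), and in the lower bands 1.23% of 8895 (0.697% higher, 0.528% lower); 241 genes whose probe has spots in both zones were left out of this split. The probes split evenly, with 6 in the upper 8 bands and 6 below. Among the 1370 genes within 0.5 log2 of the Cd38 level, 0.949% were 2-fold or more higher, 0.511% 2-fold or more lower and 1.46% either. That level is the mean of both arrays, so it includes the high knockout signal of Cd38 and lies above its wild type level. The share higher was 0.926% of 432 genes in the upper 8 bands and 0.977% of 921 below, the share lower 0.694% and 0.434%, and the share either way 1.62% and 1.41%. These shares of higher genes rest on 4 genes in the upper 8 bands and 9 below, too few to compare the zones. The upper 8 bands were pooled here, and the first band, which holds Cd38, was not taken alone at this level. The part of array position in the Cd38 difference was not tested. Only 7 measured genes had a larger difference than Cd38, from 2.20 to 2.40. Of these, 6 lay in the upper 8 bands, which hold 32.2% of the measured genes, and the wild type signals of all 7 were at or below 77.4. Npy1r (row 5) and Nags (row 4) lay in the first band, as Cd38 does.

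**Figure D2:**
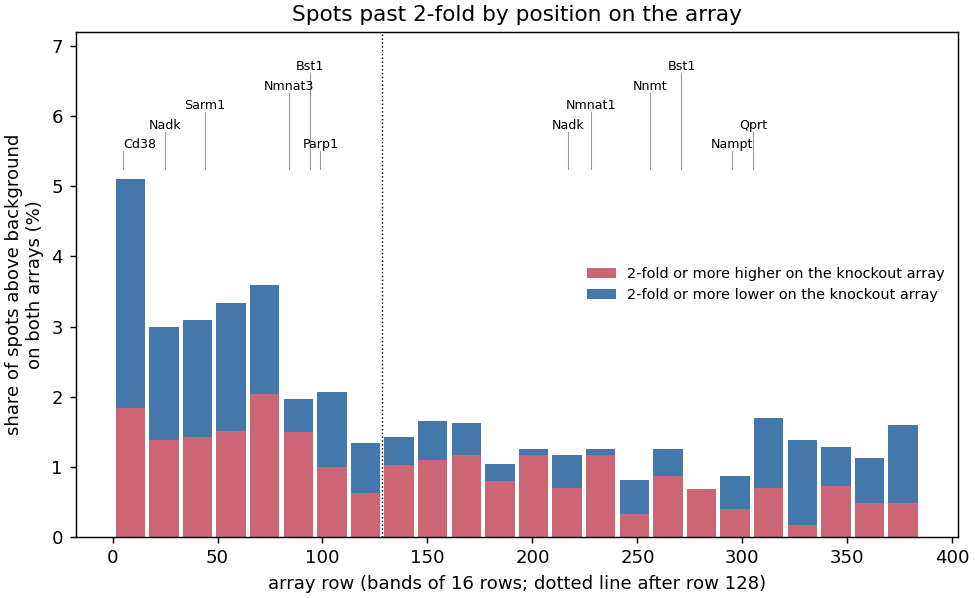
Share of spots above background on both arrays that were 2-fold or more higher (red) or lower (blue) on the knockout array, in bands of 16 array rows, with the rows of the 12 probes marked above. The share is 5.11% in the first band, which holds the Cd38 spot.

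The spots around Cd38 were then examined. Of the 56 other spots above background on both arrays within 5 rows and 5 columns, 2 were 2-fold or more higher and 0 were 2-fold or more lower, with a median of 0.12 and an SD of 0.43. Both high spots lay close to Cd38. The spot of Bbs10, in row 4 and column 42, went from 65.9 to 282 (difference 2.13), and an unnamed probe in row 2 and column 42 went from 75.8 to 219 (difference 1.56). Bbs10 is not among the 7 genes with a larger difference than Cd38. A gene there is represented by its brightest probe, averaged over its spots, so this spot alone did not stand for Bbs10. A window of 3 rows and 1 column around Cd38, set after these values were seen, held 7 spots with a wild type signal under 500, and 4 of them were 1.5-fold or more higher on the knockout array. Their median difference was 0.77, against 0.02 for the other 21 dim neighbours, of which 0 were 1.5-fold or more higher. Spots in the neighbourhood with a wild type signal of 500 or more lay between -0.27 and 0.92. Among the 7 dim spots of the window, the 4 that were 1.5-fold or more higher lay in rows 2 to 4 and columns 42 and 43. Besides the 2 already named they were Mars2 in row 4 and column 43 (0.81) and an unnamed probe in row 3 and column 43 (0.77). The others of the 7 all lay in column 44. Vegfa in row 8 was at -0.48, the lowest of the 56 neighbours, and unnamed probes in rows 2 and 4 were at -0.05 and 0.22. The part of the high neighbours in the Cd38 difference was not tested.

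**Figure D3:**
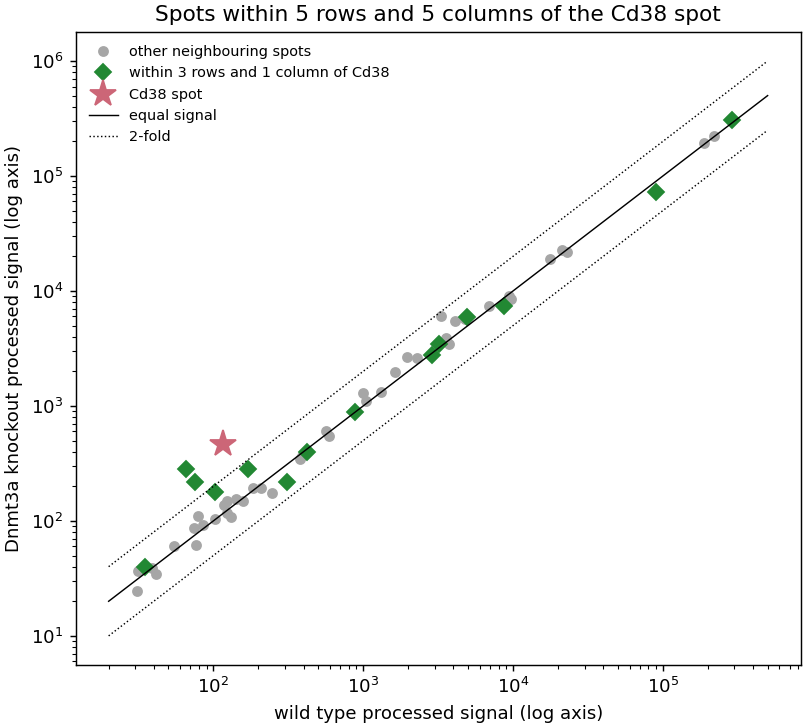
Processed signal on the knockout array against that on the wild type array, both on log axes, for spots above background within 5 rows and 5 columns of the Cd38 spot (star); diamonds are spots within 3 rows and 1 column of it, at any signal. The 2 diamonds above the upper dotted line (2-fold) are Bbs10 (2.13) and an unnamed probe (1.56).

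Probes spotted repeatedly show how often a single spot strays from its own probe on the same array. There were 399 such probes with 3990 spots. Marked spots were not left out of these counts, whereas the Cd38 spot carried no mark. The Cd38 spot itself read between 50 and 500 on both arrays. For probes with a median signal of 50 to 500, 2 of 291 spots (0.687%, exact 95% interval 0.0833 to 2.46) in the upper 8 bands of the knockout array were 2-fold or more above their probe's median, and the farthest was 4.31-fold above it. In the lower bands it was 1 of 539 spots (0.186%, interval 0.0047 to 1.03). For probes under 50 the share in the upper 8 bands was 9.87% on the knockout and 7.48% on the wild type array, and for probes at 500 or more it was 0 of 606 and 0 of 621 spots. These intervals cover counting error only. Of the 291 spots of probes at 50 to 500, 1 stood 4-fold or more above its own probe. Of the 456 spots of probes under 50 in the same bands of the knockout array, 20 did, the farthest 40.7-fold. Because Cd38 has 1 spot, its probe's median is not known, and which of these classes applies to it cannot be told.

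The promoters of Cd38 and Nampt are shown because Dnmt3a methylates cytosine in CpG, and the pair stands near both ends of the range of CpG content. These arrays hold no methylation values, so the sequences are background. Both windows run from 250 bases before to 50 after the gene's start, are credited to RefSeq and lie on the plus strand of GRCm38.p6, at chr5:43868559-43868858 for Cd38 and at chr12:32820085-32820384 for Nampt. Capitals mark each CpG.
Cd38: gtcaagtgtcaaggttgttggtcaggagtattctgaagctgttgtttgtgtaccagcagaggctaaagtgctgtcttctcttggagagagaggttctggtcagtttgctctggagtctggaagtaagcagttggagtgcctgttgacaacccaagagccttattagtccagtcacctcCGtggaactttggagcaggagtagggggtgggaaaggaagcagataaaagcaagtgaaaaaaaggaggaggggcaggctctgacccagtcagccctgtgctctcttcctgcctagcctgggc
Nampt: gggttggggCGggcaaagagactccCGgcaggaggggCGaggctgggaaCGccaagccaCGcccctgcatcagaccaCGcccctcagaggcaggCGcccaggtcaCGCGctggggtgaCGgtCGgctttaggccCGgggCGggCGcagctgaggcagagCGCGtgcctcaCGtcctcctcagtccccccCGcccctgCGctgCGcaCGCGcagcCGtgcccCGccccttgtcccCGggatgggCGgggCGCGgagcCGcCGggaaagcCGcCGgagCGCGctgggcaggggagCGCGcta
The Cd38 window holds 1 CpG, and 5.43% of 32851 promoter windows of this length have fewer. The Nampt window holds 36, and 93.8% of windows have fewer; the median window holds 7. Windows were given for 8 of the 10 genes, and the other members with windows, Nadk, Nmnat1, Nmnat3, Parp1, Qprt and Sarm1, had between 4 and 28 CpGs. The letters GAAANNGAAA, a pattern bound by interferon regulatory factors, were searched on both strands and matched in 0 of the 10 windows of these 8 genes and in 3.44% of all windows.

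Bst1 encodes CD157, a surface enzyme of the same ADP-ribosyl cyclase family as CD38, first described on bone marrow stromal cells. Both genes lie on chromosome 5 with 0 protein-coding genes between them in the RefSeq table. Bst1 had 2 probes, both higher on the knockout array with 75th percentile scaling but not with spike-in scaling. The probe in row 271 and column 59 went from 2281 to 3233, a difference of 0.53 with an error of 0.20, and the probe in row 94 and column 121 went from 309 to 425, a difference of 0.49 with an error of 0.21. The probes are on separate parts of the array and were 0.04 apart. With spike-in scaling they were at 0.00 and -0.04. Of all measured genes, 974 had a larger difference than the first of these probes.

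Nampt, the rate-limiting enzyme that recycles nicotinamide to NMN, went from 4437 to 5173 in row 295 and column 109. Its difference was 0.25 with an error of 0.20, and -0.28 with spike-in scaling. Both enzymes measured that join NMN to ATP and so complete NAD were lower on the knockout array. Nmnat1, the nuclear enzyme, went from 1838 to 1451 in row 228 and column 75 (-0.31, error 0.20), and Nmnat3, described in mitochondria, went from 4459 to 3597 in row 84 and column 114 (-0.28, error 0.20). With spike-in scaling both were lower still, at -0.84 and -0.81. Nmnat3 lies in the upper 8 bands, and its 53 neighbouring spots had a median of 0.09.

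Qprt, which turns quinolinate into the NAD precursor NaMN in synthesis from tryptophan, went from 621 to 507 in row 305 and column 88 (-0.26, error 0.20, and -0.79 with spike-in scaling). Nadk, the kinase that makes NADP from NAD, had 2 probes. The brighter one went from 10728 to 12010 in row 217 and column 120 (0.19, error 0.20), and the other from 8395 to 8901 in row 25 and column 29 (0.11, error 0.20), so both lay within the scanner error of 0. With spike-in scaling they were at -0.34 and -0.41.

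Among the enzymes that consume NAD or remove nicotinamide, Parp1, the DNA-damage sensor that builds poly(ADP-ribose), went from 1595 to 1783 in row 99 and column 99 (0.19, error 0.20, and -0.34 with spike-in scaling). Nnmt, which methylates nicotinamide with S-adenosylmethionine, was dim, at 114 and 76.3 in row 256 and column 37. Its difference of -0.55 (error 0.23) became -1.07 with spike-in scaling, where it passed 2-fold, and -0.29 after normexp. It was the lowest of the 9 with 75th percentile scaling, but not after normexp, where Nmnat1 was at -0.31. Sarm1, an NAD hydrolase known from degenerating axons, gave 6.40 and 4.46 in row 44 and column 12, close to the negative controls (medians 6.06 and 4.24). No fold is given for it.

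**Figure D4:**
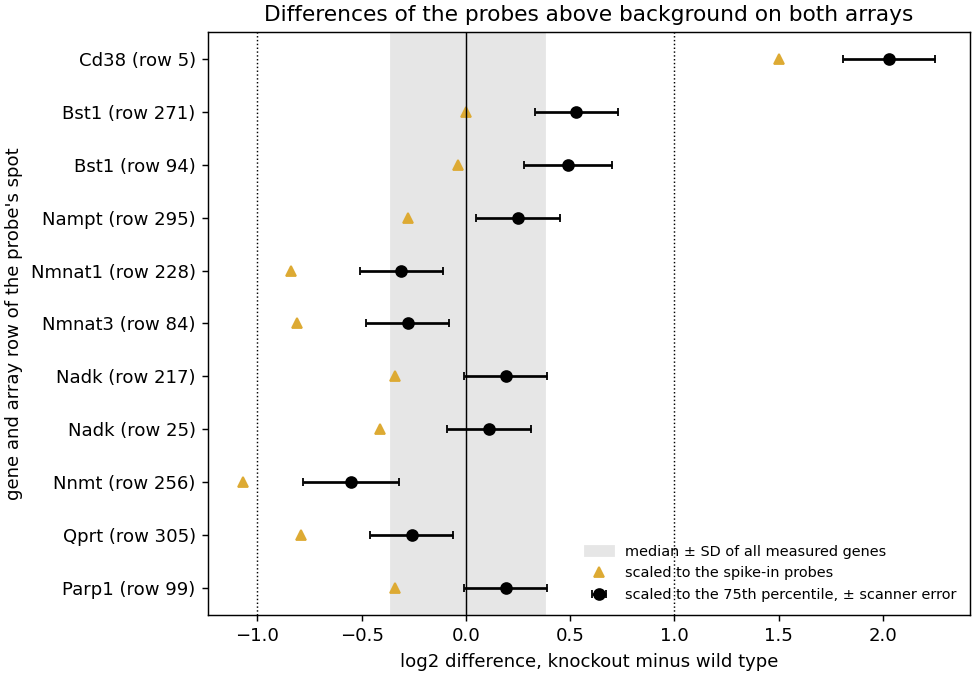
Log2 difference, knockout minus wild type, of the 11 probes above background on both arrays, scaled to the 75th percentile (circles, with the scanner error) and to the spike-in probes (triangles); grey marks the median and SD of all measured genes and dotted lines mark 2-fold. Cd38 stands at 2.03 and 1.5, and the other probes lie between -0.55 and 0.53 under the first scaling and between -1.07 and 0.00 under the spike-in scaling.

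Another 82 genes of NAD metabolism and signalling were grouped by function into 7 lists. With 75th percentile scaling, 0 of the genes that both arrays detected were past 2-fold. The other genes of NAD synthesis had a median of 0.11 over 7 measured genes, 5 of them above 0, and it was -0.42 with spike-in scaling. Pnp, the purine nucleoside phosphorylase that also splits nicotinamide riboside, was highest at 0.58 (24660 to 36140, and 0.05 with spike-in scaling), but it has a near-identical copy in the mouse genome that the probe may also detect. Nmrk1, a nicotinamide riboside kinase, followed at 0.19 (-0.34 with spike-in scaling). Nadsyn1, the last enzyme of synthesis from tryptophan, was lowest at -0.40 (1371 to 1018), and Prps2 was at -0.11.

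Of the 11 genes of the kynurenine route, which leads from tryptophan to quinolinate, both arrays detected 5, and their median was 0.23 (-0.30 with spike-in scaling). Kmo, kynurenine monooxygenase, was highest at 0.57 (299 to 435, and 0.04 with spike-in scaling), and Afmid was at 0.25 (-0.28 with spike-in scaling). Kyat1 (-0.15) and Kyat3 (-0.11) were lowest, and the 2 Kyat3 probes disagreed in sign, the other being at 0.35. Ido1, Ido2, Tdo2, Acmsd and Aadat were not well above background on either array. Kynu, kynureninase, was above background on the wild type array only, at 327 against 19.95. Its bound, 16-fold lower in the knockout, rests on that undetected signal and equals the difference itself, -4 with a scanner error of 0.36. Kynu has 1 probe, in row 8 and column 96. Named probes above background on the wild type array only had a bound of 4-fold or more in 66 of 126 cases (52.4%) in the upper 8 bands, and in 15 of 92 (16.3%) below them. The part of this in the Kynu value was not tested.

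The 7 sirtuins, NAD-dependent deacylases, had a median of -0.10, with 2 above 0 and 5 below. Sirt2 (0.41) and Sirt7 (0.25) were highest and Sirt5 (-0.35) and Sirt6 (-0.24) lowest, and with spike-in scaling 0 of the 7 were above 0. The 20 other genes of the PARP family and of ADP-ribose removal had a median of 0.06, with 12 above 0 and 8 below. Parp14, a mono-ADP-ribosyltransferase, was highest at 0.67 (9480 to 14780, row 66) and Parp9, its partner, came next at 0.51 (3045 to 4244, row 219). Tiparp (-0.20) and Parg (-0.19) were lowest. Parp12 (0.42), Zc3hav1 (0.39), Parp10 (0.36) and Parp11 (0.30), named after their values were seen, were above 0 as well, and Parp14 was the only one of the 20 still above 0 with spike-in scaling, at 0.14. Several of these PARPs are known as interferon-induced genes. The 11 measured genes of an interferon response list were all above 0, with a median of 0.91 (0.38 with spike-in scaling, where all 11 remained above 0). Whether the PARP differences are tied to those of the interferon list was not tested.

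The enzymes and receptors that act on nucleotides outside the cell had a median of 0.06 over 9 measured genes, and -0.47 with spike-in scaling. Entpd1 (CD39), which degrades extracellular ATP, was highest at 0.65 (335 to 513, and 0.12 with spike-in scaling). P2rx7, the ATP-gated channel, was at 0.50 (-0.03 with spike-in scaling), and its 2 other probes were both at 0.31. Enpp2 (-0.42) and Adora2b (-0.39) were lowest, and the other Adora2b probe was at 0.27. Art4 was above background on the wild type array only, at 54.3 against 5.30 in row 36. Its bound was 3-fold lower in the knockout, and its difference of -3.33 had a scanner error of 1.11. Row 36 lies in the upper bands, where large bounds of this kind were more frequent, as given for Kynu. The part of array position in the Art4 value was not tested. Art3 was above background on the knockout array only, with a bound of 1.15-fold.

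The calcium channels that respond to cyclic ADP-ribose, ADP-ribose or NAADP, together with the IP3 receptors, had the highest median of the 7 lists, 0.43 over 7 measured genes with 6 above 0, but it was -0.10 with spike-in scaling. Ryr1, a ryanodine receptor, was highest at 0.73 (171 to 277, row 80, and 0.20 with spike-in scaling), and Trpm2, a channel opened by ADP-ribose, was at 0.57 with an error of 0.37 (37.2 to 54.1, row 84). Itpr3, an IP3 receptor, was lowest at -0.37 (12220 to 9229, the mean of 10 spots across the array), and Tpcn1, a lysosomal channel, was at 0.11 (-0.41 with spike-in scaling). Of these 7 genes 4 lie in the upper 8 bands. Without the spots of those bands 3 genes remained, Tpcn2 (0.51), Itpr2 (0.21) and Itpr3 (-0.38, from 5 of its 10 spots), with a median of 0.21. The genes of nicotinamide clearance and NAD transport had a median of 0.02 over 7 measured genes and -0.51 with spike-in scaling. Gja1 (connexin 43), a channel through which NAD can leave cells and a gene of stromal cells, was lowest at -0.78 (108 to 61.8, the mean of 9 spots; -1.31 and so past 2-fold with spike-in scaling), followed by Nudt13 (-0.24). Nudt12 (0.45, error 0.30) and Aox1 (0.27) were highest, at -0.08 and -0.26 with spike-in scaling.

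**Figure D5:**
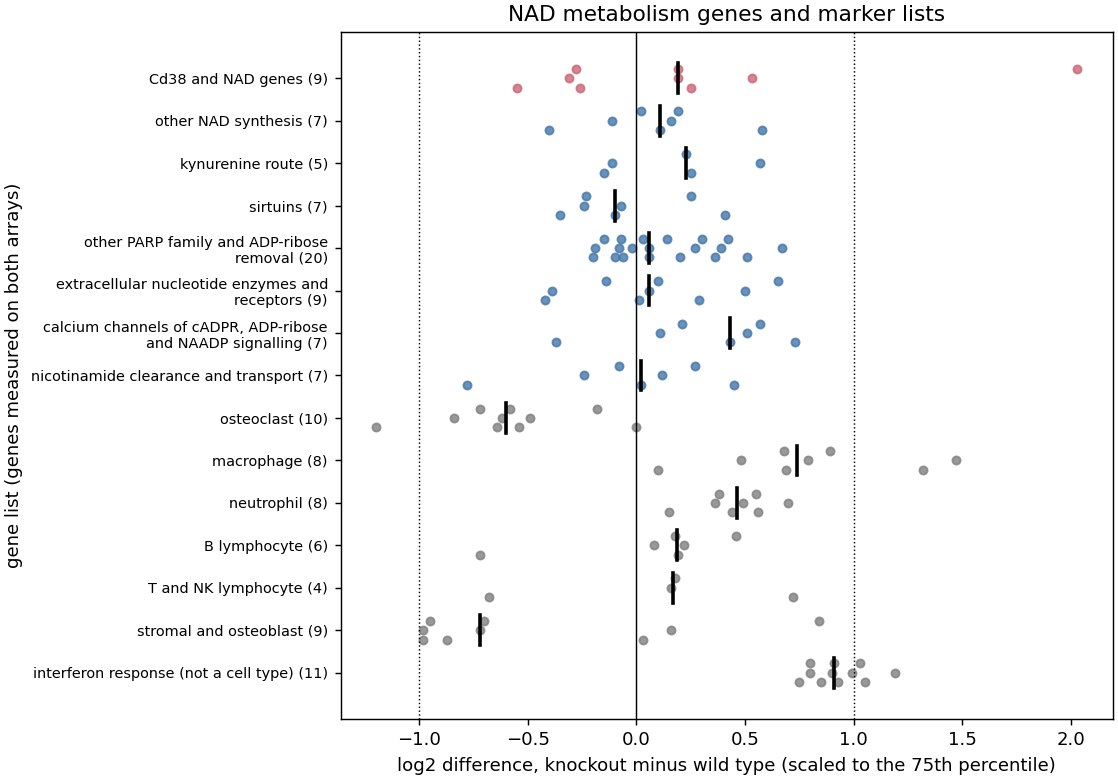
Log2 difference, knockout minus wild type, of each gene measured on both arrays, for Cd38 and the NAD genes (red), the 7 lists of NAD metabolism (blue) and 7 marker lists (grey), with 75th percentile scaling; bars are medians, numbers are genes and dotted lines mark 2-fold. Cd38 is the only NAD gene past 2-fold, and the medians of the osteoclast list (-0.60) and the interferon list (0.91) lie farther from 0 than those of the NAD lists (with spike-in scaling the interferon median, 0.38, is nearer to 0 than that of the sirtuins, -0.63); spike-in scaling moves every point down by 0.53, which takes Nnmt (-1.07), Gja1 (-1.31) and the medians of the osteoclast (-1.13) and stromal (-1.25) lists past 2-fold lower.

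Markers of the cells that the culture could hold were examined beside these genes. All 10 osteoclast markers were detected on both arrays, from Acp5 and Ctsk to Calcr, with a median of -0.60 (-1.13 with spike-in scaling) and a summed signal that went from 1152000 to 982300. Tnfrsf11a (RANK), through which RANKL acts, was the 1 osteoclast marker past 2-fold with 75th percentile scaling, at -1.20 (11350 to 4846). All 8 measured macrophage markers were above 0, with a median of 0.74 (0.21 with spike-in scaling, 6 of 8 above 0) and summed signals of 377700 and 434600. Neutrophil markers had a median of 0.47 over 8 genes (-0.06 with spike-in scaling; 148200 and 191700). B lymphocytes, which also carry CD38, were represented by 6 measured markers with a median of 0.18 (-0.35 with spike-in scaling) and summed signals of 5429 and 5913. Pax5 passed the background limit in the knockout alone, at 19.56 against 16.61 in the wild type, with a scanner error of 0.57. Its bound was 1.0-fold, so no difference is read from it. The lowest signal above background was itself lower on the knockout array, at 17.7 against 25.8. For T and NK lymphocytes 4 markers were measured, at a median of 0.17 (-0.36 with spike-in scaling; 9008 and 8439), and Cd3d, Ncr1 and Klrb1c were not well above background on either array. Stromal and osteoblast markers, the cells in which Bst1 was first described, were below 0 in 6 of 9 cases, with the median at -0.72 (-1.25 with spike-in scaling; 73890 and 47090). These arrays measure whole cultures, so a different number of cells of a type and a different amount of RNA per cell cannot be told apart, and the part of cell makeup in the differences of Cd38, Bst1 and the other NAD genes was not tested.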

How the data were processed

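The authors deposited, per the file headers, Agilent Feature Extraction intensities for 59305 spots per array, background-subtracted and spatially detrended (version 10.10.1.1, protocol GE1_1010_Sep10; the submitters' processing notes name version 9.1), with other marks per spot. The deposited value table holds the same intensities times about 1.55 and 1.54, for reasons not given in the sources used here. Marked spots (157 wild type, 172 knockout) were left out of the differences, but not of the counts for repeatedly spotted probes. Log2 values were set relative to the 75th percentile, and 27224 of 55649 probes (48.9%) were named through RefSeq accessions (GRCm38.p6, names only). The brightest probe stood for a gene. A gene on 1 array only got a bound against the higher of its own signal and the lowest signal above background (25.8 and 17.7). The number of arrays limits the precision. The genes, lists and alternatives were chosen with earlier results of these data known. In the lists of NAD metabolism, the 2 highest and 2 lowest measured genes, any past 2-fold and any on 1 array only were named; in marker lists, genes were named after their values were seen. A probe with spots in both the upper 8 bands of 16 rows and the rest was counted in neither. The calling was tested on simulated data with the same noise at every signal and array position. That test therefore does not cover the scatter of dim spots or of spots near the upper edge. Python 3.11.15, pandas 2.3.3 and limma 3.58.1 were used.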

Additional observations from a re-analysis of the deposited data

How the results depend on the processing

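No paired analysis was possible because each genotype has 1 array and no test was made. Cd38 stayed between 1.19 and 2.03 in all 11 settings that gave a value, above 2-fold in each, but all of them read the same spot. No filter on dim probes, marked spots kept, the median over a gene's probes and the deposited table could not move 1 unmarked, detected spot. Cd38 was at 1.5 with spike-in scaling and at 1.56 from the median signal minus the local background. It was at 1.19 after normexp, run on the median spot signal with an offset of 50 added. That alternative was chosen after seeing the data because the files used here have no mean signal. Without the upper 8 bands of 16 rows, or with only genes whose level reached the median, Cd38 had no value and 0 of the NAD genes were past 2-fold. With spike-in scaling 2 were, Cd38 and Nnmt. The median of the NAD genes was -0.34 with spike-in scaling, -0.03 without the upper 8 bands and -0.04 with no filter on dim probes.

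All genes 2-fold or more higher and lower numbered 111 and 98; they were 18 and 1009 with spike-in scaling, 42 and 26 after normexp, 65 and 48 without the upper 8 bands, 1184 and 466 with no filter, 27 and 7 at or above the median level, and 784 and 632 at 1.5-fold. The share of these that was higher went from 53.1% to 1.75% with spike-in scaling, 39.8% after quantile normalization, 64.9% from the median signal, 71.8% with no filter and 79.4% at or above the median level. The share of genes past 2-fold in the upper 8 bands was 2.30%, and 8.50% with spike-in scaling, 0.828% after normexp, 11.9% with no filter and 0.640% at or above the median level.

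With spike-in scaling, which lowers each value by 0.53, the list medians were -0.42 (NAD synthesis), -0.30 (kynurenine), -0.63 (sirtuins), -0.47 (PARPs), -0.47 (extracellular), -0.10 (calcium channels) and -0.51 (clearance). The calcium channel median was 0.21 without the upper 8 bands and 0.16 at or above the median level, the extracellular one 0.30 at or above the median level, and the kynurenine one -0.11 with no filter. Where no construction of the setting is named, the cause was not tested.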
